A study of Mus musculus with 10 samples.

Results

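The DNA replication genes described here are 41 genes chosen by name, from the origin-binding proteins to the enzymes that supply nucleotides and cyclin E. All 41 were found, each in 1 row, among the 17919 RefSeq genes of the 6 gene tables used. The study took neural stem cells out of the ventral midbrain of mouse embryos (strain ICR, embryonic day 10) and gave them a Lin28a lentivirus or a mock control. With a passage every 4 days, cells were collected at passages 1 (P1) and 3 (P3). RNA-seq covered 4 groups, P1 control, P3 control, P1 Lin28a and P3 Lin28a, and polysome-seq, which reads RNA from sucrose gradient fractions meant to hold ribosome-bound RNA (which fractions is not given in the sources used here), covered P3 control and P3 Lin28a. Apart from the virus and the passage, the groups shared the strain, the tissue and the culture. Each group held 1 library, so no difference has a replicate check, no test was possible, and every value describes these libraries only. The labels do not say how many embryos were pooled, which promoter drove Lin28a or whether the polysome cells were those of the P3 RNA-seq libraries.

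Before a cell copies its genome, the origin recognition complex, Cdc6 and Cdt1 load the ring-shaped MCM2-7 helicase on DNA, a step called licensing that geminin (Gmnn) restrains by binding Cdt1. Cyclin E with its kinase, Mcm10, Cdc45 and the GINS complex then turn the loaded ring into an active helicase. Polymerase alpha with primase starts each strand, the clamp Pcna is loaded by the Rfc complex and holds polymerases delta and epsilon on DNA, and Fen1, Dna2 and Lig1 finish the lagging strand. Many of these genes are known targets of E2F transcription factors and are transcribed mainly in cells about to enter S phase. In a neural progenitor culture their RNA is therefore known as a marker of cycling cells. In RNA from whole cultures, fewer cells of a type and less RNA per cell cannot be told apart.

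Promoter sequences are shown as description only, and their part in the ratios was not tested. RefSeq promoter windows (assembly GRCm38.p6, 250 bases before to 50 after a start site) matched 32 of the 41 genes, with 37 windows. The E2F letters TTTCCCGC, TTTGGCGC, TTTCGCGC or TTTGGCGG, on either strand, stood in 14 of the 37 windows (37.8%). The same letters stood in 3.58% of the 16357 windows of all genes of the tables and in 2.37% of all 32851 windows. A match is a run of letters and not a measured binding site. Members with and without the letters overlapped widely in their ratios, which are given under other observations. The 14 genes were Mcm3, Mcm5, Mcm6, Mcm7, Orc1, Cdc6, Cdt1, Gins3, Rfc3, Rpa1, Lig1, Pold1, Pola1 and Pola2. The stretches below show the letters in the upstream DNA of 3 members, picked because the bases shown lie in no annotated gene. Mcm5 and Mcm6 are helicase subunits with strongly lower RNA at P3, and Gins3 is a low-level helicase cofactor. Each is written 5′ to 3′ on the gene's strand, with the E2F letters in capitals. That of Mcm5 is chr8:75109259-75109467 on the plus strand, that of Mcm6 is chr1:128359706-128359955 on the minus strand and that of Gins3 is chr8:95633309-95633558 on the plus strand.
Mcm5: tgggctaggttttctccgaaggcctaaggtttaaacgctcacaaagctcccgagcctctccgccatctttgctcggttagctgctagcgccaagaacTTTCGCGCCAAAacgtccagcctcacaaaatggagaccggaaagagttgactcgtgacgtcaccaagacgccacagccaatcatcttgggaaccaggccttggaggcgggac
Mcm6: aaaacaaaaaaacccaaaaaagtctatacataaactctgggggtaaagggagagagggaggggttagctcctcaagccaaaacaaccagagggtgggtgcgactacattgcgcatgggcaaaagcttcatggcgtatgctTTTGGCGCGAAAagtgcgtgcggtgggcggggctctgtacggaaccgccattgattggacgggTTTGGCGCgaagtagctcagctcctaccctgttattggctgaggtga
Gins3: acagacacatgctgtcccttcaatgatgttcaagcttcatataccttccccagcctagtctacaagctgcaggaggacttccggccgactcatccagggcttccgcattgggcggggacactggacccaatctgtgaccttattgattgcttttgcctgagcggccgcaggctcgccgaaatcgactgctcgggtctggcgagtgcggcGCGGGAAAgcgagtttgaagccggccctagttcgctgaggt
In Mcm6 the first capitals hold overlapping matches, TTTGGCGC and, on the other strand, TTTCGCGC, whose first bases lie 110 and 106 bases before the start site, and TTTGGCGC occurs again 47 bases before it. In Mcm5 the capitals likewise join TTTCGCGC with TTTGGCGC on the other strand, 153 and 149 bases before the start. In Gins3 TTTCCCGC lies on the other strand, 41 bases before the start.

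The members were well detected. RNA-seq levels are taken to be FPKM, fragment numbers adjusted for gene length and library size, a unit that allows comparison between genes. Polysome-seq levels are taken to be RPKM, the matching unit for reads. No unit is named for either assay, and whether the polysome values were adjusted for gene length was not checked. Comparing polysome levels between genes therefore rests on this reading. The median level of the 41 genes was 19.5 (P1) and 12.8 (P3) FPKM in control, and 24.6 (P1) and 14.2 (P3) with Lin28a. Among all genes at 1 FPKM or more the medians of the same libraries lay between 12.9 and 13.2. In polysomes the median of the members was 11.9 RPKM in control and 11.4 in Lin28a. The lowest member in RNA-seq was Orc1, the large subunit of the origin recognition complex, with 2.26 (P1) and 0.717 (P3) FPKM in control, and 3.30 (P1) and 0.982 (P3) with Lin28a. The highest was Pcna, with 187, 100.2, 217 and 82.9 FPKM in the same order. The P1 Lin28a library was the highest of the 4 RNA libraries for 39 of the 41 genes, the exceptions being Rpa1 and Gins4. P3 control was the lowest for 30 genes, P3 Lin28a for 10 and P1 control for Gins4 alone. These counts were not made over all genes, so no background share stands beside them. The plot of levels by role gives all 4 values of each gene.

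**Figure D1:**
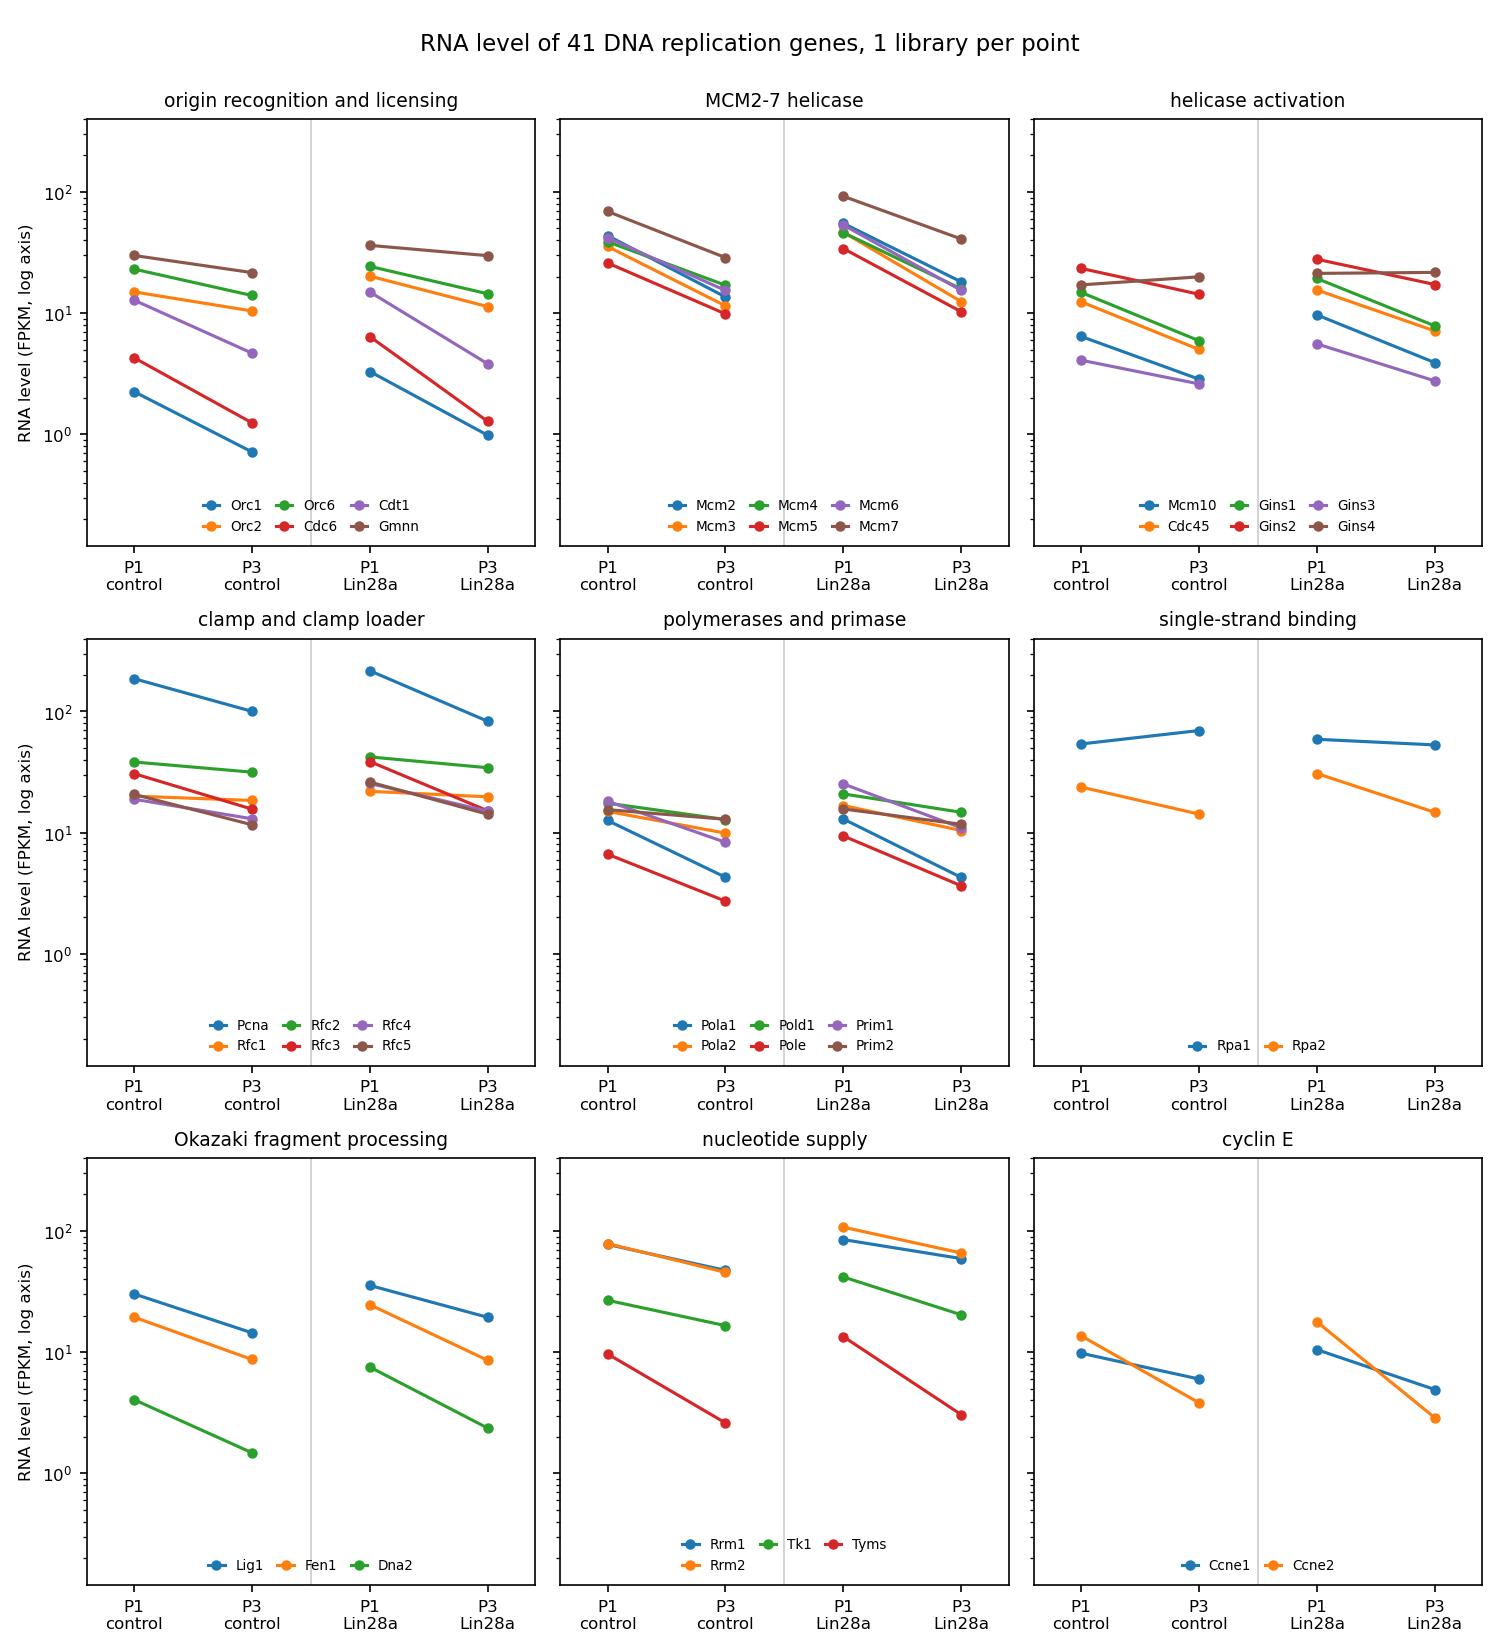
RNA level in FPKM (log axis) of the 41 DNA replication genes in the 4 RNA-seq libraries, 1 panel per role and 1 point per library, with lines joining P1 and P3 of the same virus. Nearly all lines slope down from P1 to P3 in both cultures, while those of Gins4 and, in control, Rpa1 slope up.

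From P1 to P3 the replication genes were lower in both cultures. Ratios are given as log2 of (level + 1), which understates changes of low genes, and a gene entered a comparison if it reached a level of 1 in at least 1 of its libraries. In control 39 of 41 members were lower at P3, 18 of them past 2-fold and 30 past 1.5-fold, and the median log2 ratio was -0.92. Among all 13011 genes compared 8.14% were lower past 2-fold, 19.8% past 1.5-fold and 50.3% by any amount, 11.5%, 22.6% and 49.7% were higher by the same steps, and the median was 0.00. In the Lin28a culture 40 of 41 were lower, 23 past 2-fold and 33 past 1.5-fold, with a median of -1.02. There 4.8% of 12850 genes were lower past 2-fold, 14.8% past 1.5-fold and 51% by any amount, and 8.38%, 18.2% and 49% were higher by these steps. These comparisons share no library. Past 2-fold in both cultures were 17 genes, and Lig1 passed in control alone while Orc1, Mcm10, Pcna, Rfc3, Rpa2 and Tk1 passed in Lin28a alone. Some of these lay at the cut: Lig1 at -1.02 in control, and Rpa2 at -1.02 and Tk1 at -1.001 in Lin28a. In control Orc1 (-0.92) and Mcm10 (-0.95) missed it only through the added 1. Their plain FPKM ratios there were 3.15-fold and 2.25-fold lower. Those of Pcna (1.86), Rfc3 (1.96), Rpa2 (1.67) and Tk1 (1.62) stayed under 2-fold in control. The overlap was not counted over all genes. The heatmap of ratios gives every member.

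**Figure D2:**
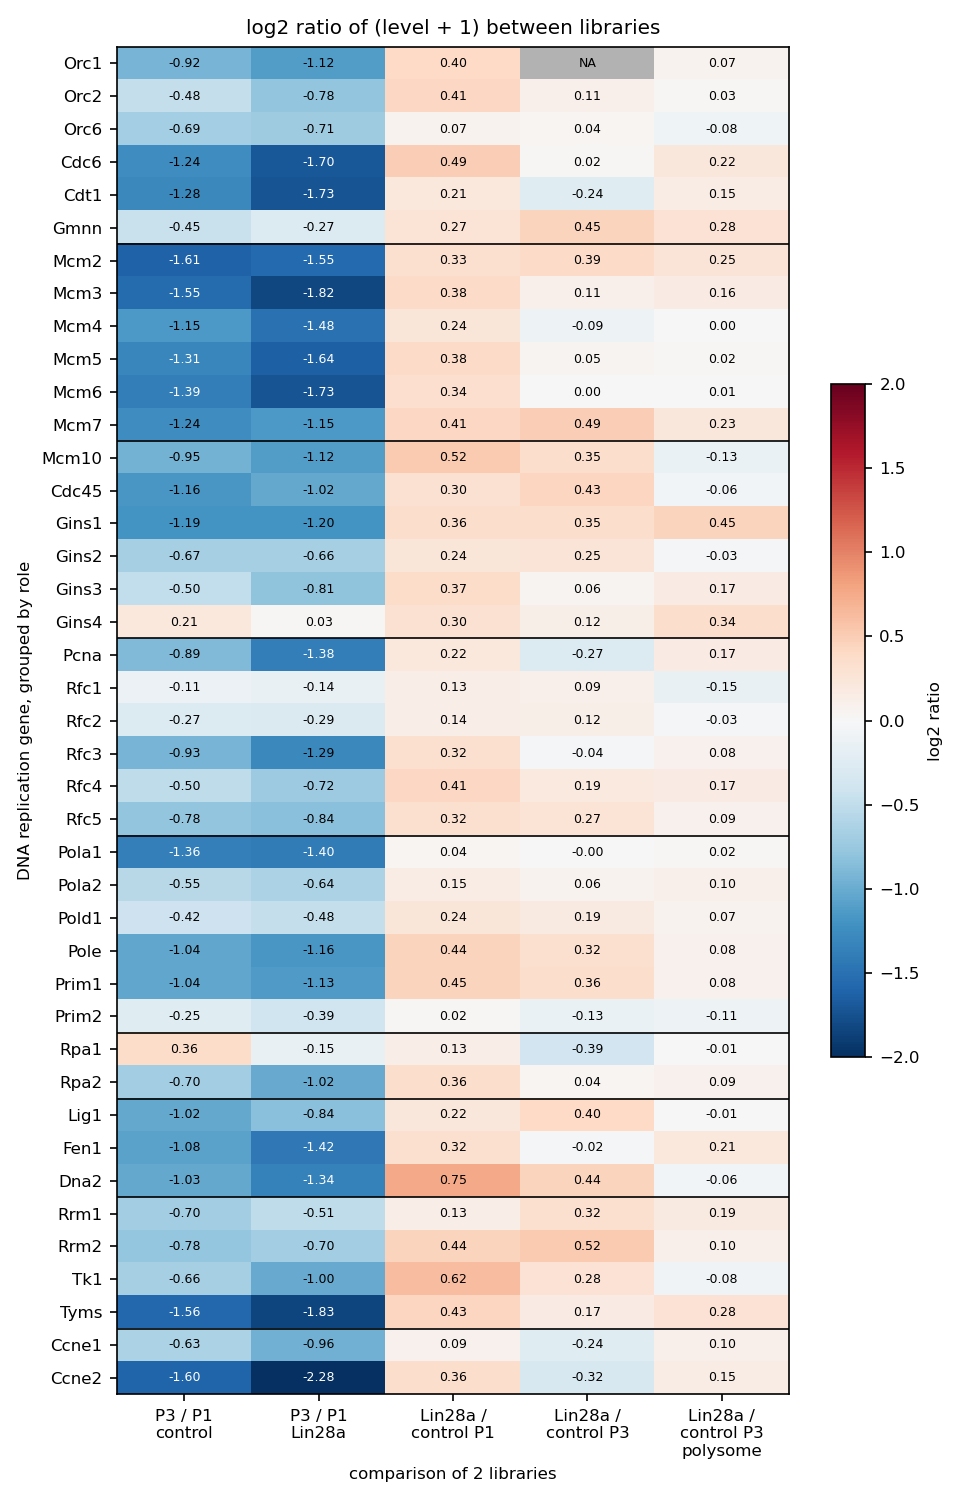
The log2 ratio of (level + 1) for each of the 41 genes (rows, grouped by role with black lines) in 5 comparisons of 2 libraries (columns), with blue for lower and red for higher. The first columns, P3 against P1, are blue for all but Gins4 and Rpa1 in control and Gins4 in Lin28a, the Lin28a against control column at P1 is red throughout, and that at P3 is mixed. NA marks Orc1, under 1 FPKM in both P3 libraries.

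The MCM2-7 ring, the motor of the replicative helicase, was lower past 2-fold for all 6 subunits in both cultures. Mcm2 was at 43.7 (P1) and 13.6 (P3) FPKM in control, and 55.1 (P1) and 18.1 (P3) with Lin28a. In control it was thus 3.21-fold lower as a plain FPKM ratio, with a log2 ratio of -1.61. That was the lowest of all members with the pseudocount of 1, but with one of 0.1 Tyms (-1.85) and Ccne2 (-1.81) lay below Mcm2 (-1.67), and by plain ratio Tyms (3.71-fold), Ccne2 (3.57-fold) and Cdc6 (3.44-fold) did. Its log2 ratio in Lin28a was -1.55. Mcm3 followed, with 35.5 and 11.5 FPKM in control (-1.55) and 46.5 and 12.4 in Lin28a (-1.82). The other 4 subunits had ratios from -1.39 (Mcm6) to -1.15 (Mcm4) in control and from -1.73 (Mcm6) to -1.15 (Mcm7) in Lin28a. The summed level of the 6 subunits was 255 (P1) and 96.1 (P3) FPKM in control, and 327 (P1) and 113 (P3) with Lin28a.

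Licensing factors split. Cdt1 and Cdc6, which load the ring, were lower past 2-fold in both cultures. Cdt1 was at 12.8 (P1) and 4.68 (P3) FPKM in control (log2 ratio -1.28), and at 15.0 and 3.81 in Lin28a (-1.73). Cdc6 was at 4.29 and 1.25 FPKM in control (-1.24) and at 6.41 and 1.28 in Lin28a (-1.70). Gmnn, the inhibitor of Cdt1, differed less, with 29.9 and 21.6 FPKM in control (-0.45) and 36.3 and 29.8 in Lin28a (-0.27). Cdt1 was thus at 0.428 of the level of Gmnn in P1 control and 0.217 in P3 control, and at 0.412 and 0.128 in Lin28a. Of the origin recognition subunits, Orc1 had -0.92 in control and -1.12 in Lin28a, while Orc2 (-0.48, -0.78) and Orc6 (-0.69, -0.71) stayed within 2-fold.

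Cyclin E, which drives entry into S phase, showed the lowest ratio of any member in the Lin28a culture. Ccne2 was at 13.7 (P1) and 3.83 (P3) FPKM in control, and 17.8 (P1) and 2.88 (P3) with Lin28a. Its log2 ratio was -1.60 in control and -2.28 in Lin28a, plain FPKM ratios of 3.57-fold and 6.19-fold lower. Its paralog Ccne1 was at 9.81, 6.01, 10.5 and 4.92 FPKM in the same order (-0.63 and -0.96). Ccne2 was the higher paralog in both P1 libraries and Ccne1 in both P3 libraries.

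Genes of helicase activation differed among themselves. Gins1 (-1.19 in control, -1.20 in Lin28a) and Cdc45 (-1.16, -1.02) were lower past 2-fold in both cultures, Mcm10 was at -0.95 and -1.12, Gins2 at -0.67 and -0.66, and Gins3 at -0.50 and -0.81. Gins4 went the other way, with 17.1 (P1) and 19.9 (P3) FPKM in control, and 21.3 (P1) and 21.7 (P3) with Lin28a. Its log2 ratios were 0.21 and 0.03. The 4 GINS proteins form 1 complex, and their RNAs did not keep their order: Gins2 was the highest in both P1 libraries and Gins4 in both P3 libraries.

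Among polymerases the ratio depended on the subunit. Pola1, the catalytic subunit of polymerase alpha, was at 12.6 (P1) and 4.29 (P3) FPKM in control, and 13.0 (P1) and 4.27 (P3) with Lin28a. Its log2 ratios were -1.36 and -1.40, while its partner Pola2 had -0.55 and -0.64. The small primase subunit Prim1 (-1.04, -1.13) and the large one, Prim2 (-0.25, -0.39), stood apart in the same way. Pole, the catalytic subunit of polymerase epsilon, had -1.04 and -1.16, against -0.42 and -0.48 for Pold1 of polymerase delta.

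Clamp and clamp loader genes were lower by any amount in both cultures, none past 2-fold in control. Pcna had the ratios -0.89 and -1.38, and Rfc3, a small Rfc subunit, had -0.93 and -1.29. Rfc5 (-0.78, -0.84), Rfc4 (-0.50, -0.72) and Rfc2 (-0.27, -0.29) lay between, and Rfc1, the large subunit, was nearly level at -0.11 and -0.14. Of the single-strand binding proteins Rpa2 was lower (-0.70, -1.02). Rpa1 was at 54.0 (P1) and 69.6 (P3) FPKM in control, and 59.0 (P1) and 53.0 (P3) with Lin28a, so that P3 control was the highest of the 4 (0.36 in control, -0.15 in Lin28a).

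The genes that finish the lagging strand and supply nucleotides were lower as well. Fen1, the flap nuclease, had -1.08 in control and -1.42 in Lin28a, Dna2 had -1.03 and -1.34, and the ligase Lig1 had -1.02 and -0.84. Thymidylate synthase, Tyms, was at 9.68 (P1) and 2.61 (P3) FPKM in control, and 13.4 (P1) and 3.05 (P3) with Lin28a (-1.56 and -1.83), the largest ratios of this role. A copy listed as Tyms-ps was at 0.0325 FPKM or less in RNA-seq, but at 0.804 RPKM in control and 1.38 in Lin28a in polysomes, so that the polysome values of Tyms are uncertain. The ribonucleotide reductase genes Rrm1 (-0.70, -0.51) and Rrm2 (-0.78, -0.70) and thymidine kinase, Tk1 (-0.66, -1.001), differed less.

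At P1 every replication gene was slightly higher with Lin28a. All 41 log2 ratios of Lin28a to control were above 0, from 0.02 to 0.75, with a median of 0.32, where 48.4% of 12564 genes were higher by any amount and the median of all genes was -0.01. None passed 2-fold and 2 passed 1.5-fold. Of all genes 0.135% were higher past 2-fold and 0.613% past 1.5-fold, and 0.0955%, 0.963% and 51.6% were lower past 2-fold, past 1.5-fold and by any amount. Those were Dna2, a nuclease and helicase of Okazaki fragments, with 4.06 FPKM in control and 7.53 in Lin28a (0.75), and Tk1, with 26.8 and 41.7 FPKM (0.62). Mcm10 (6.44 and 9.68 FPKM, 0.52) and Cdc6 (4.29 and 6.41 FPKM, 0.49) came next. The smallest ratios were those of Prim2 (0.02), Pola1 (0.04), Orc6 (0.07) and Ccne1 (0.09). This comparison uses the P1 libraries that the passage comparisons also use.

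At P3 the members no longer lay on 1 side. Of 40 measured genes 30 were higher and 10 lower in Lin28a, none past 1.5-fold either way, with a median log2 ratio of 0.11. With a pseudocount of 0.1 Dna2 passed (0.64), and its plain FPKM ratio was 1.59. Among 12716 genes 48.5% were higher and 51.5% lower by any amount, 5.45% and 6.35% past 1.5-fold and 1.31% and 1.34% past 2-fold, and the median was -0.01. The highest members were Rrm2, with 45.6 FPKM in control and 65.8 in Lin28a (0.52), Mcm7, with 28.8 and 40.9 (0.49), Gmnn, with 21.6 and 29.8 (0.45), and Dna2, with 1.48 and 2.36 (0.44). The lowest were Rpa1, with 69.6 FPKM in control and 53.0 in Lin28a (-0.39), Ccne2, with 3.83 and 2.88 (-0.32), Pcna, with 100.2 and 82.9 (-0.27), and Ccne1, with 6.01 and 4.92 (-0.24). Orc1, under 1 FPKM in both libraries, was not counted. Within the helicase ring Mcm7 (0.49) and Mcm2 (0.39) had the highest ratios, and Mcm3, Mcm4, Mcm5 and Mcm6 lay between -0.09 and 0.11. The P3 control library is also part of the passage comparison in control.

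Set against each other, the Lin28a ratios at P1 and at P3, which share no library, gave 30 members higher at both passages and 10 higher at P1 but lower at P3. No member was lower at P1, so this split restates the signs at P3. Among all genes compared at P3, 48.5% were higher and 51.5% lower. The passages also differed in Lin28a RNA itself, at 478 (P1) and 103.8 (P3) FPKM in the Lin28a culture. Its part in the ratios was not tested. As the difference of the P3 and P1 ratios, which equals the passage ratio in Lin28a minus that in control, 33 of 41 members were below 0, 1 of them past 1.5-fold (Ccne2), with a median of -0.18. Over 13138 genes 50.4% were below 0, 4.86% past 1.5-fold and 0.898% past 2-fold, while 49.6%, 6.1% and 1.55% were above 0 by these steps, and the median was 0.00. The lowest members were Ccne2 (-0.67), Rpa1 (-0.51), Pcna (-0.49) and Cdc6 (-0.46), and the highest were Rrm1 (0.19), Gmnn (0.18), Lig1 (0.18) and Cdc45 (0.13). Since this difference subtracts the P1 ratio, above 0 for all 41 members (median 0.32), it takes over that ratio with the sign turned. It is thus no result separate from the P1 and P3 ratios.

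Genes of mitosis, the phase that follows replication, served as a neighbouring list of 25 genes. Within each passage or Lin28a comparison of RNA-seq, their ratios had mostly the same signs as those of the replication genes. The values lay apart in the Lin28a culture with passage and at P3. The passage ratio in Lin28a minus that in control had mostly the opposite sign. In control the mitosis genes were lower at P3 in 25 of 25 cases, 4 past 2-fold, with a median of -0.77. For replication 18 of 41 were lower past 2-fold there, with a median of -0.92. In the Lin28a culture the median of mitosis was -0.21 with 19 of 25 lower and 0 past 2-fold, against -1.02 and 23 of 41 for replication. At P1 24 of 25 were higher with Lin28a, with a median of 0.16, against 0.32 for replication. At P3 all 25 were higher, 22 past 1.5-fold, with a median of 0.72, against 0.11 for replication. The kinase Plk1, for example, was at 51.0 (P1) and 28.5 (P3) FPKM in control, and 59.9 (P1) and 53.7 (P3) with Lin28a. The separase gene Espl1, the only one past 2-fold at P3, was at 8.04, 3.29, 9.94 and 8.49 FPKM. The passage ratio in Lin28a minus that in control was above 0 for 25 of 25 mitosis genes, 11 past 1.5-fold, with a median of 0.57. For replication 8 of 41 were above 0, with a median of -0.18. Over all genes 49.6% were above 0 and 6.1% past 1.5-fold. This difference is built from the P1 and P3 ratios already given, so it adds no separate contrast between the lists. The difference between the lists was not tested, since each group holds 1 library and genes are not replicates.

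**Figure D3:**
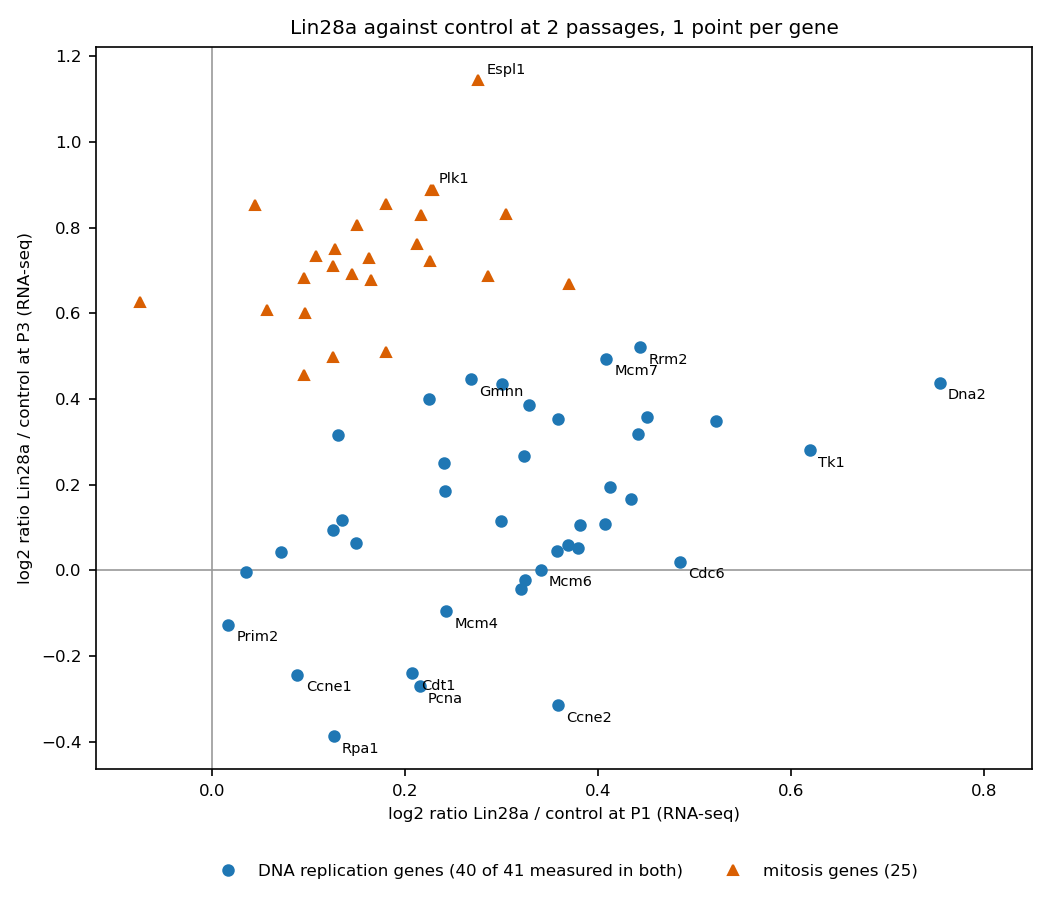
The log2 ratio of Lin28a to control in RNA-seq at P1 (x axis) and at P3 (y axis), 1 point per gene, for the DNA replication genes (blue circles) and the mitosis genes (orange triangles). All 25 mitosis genes lie above 0 on the y axis, while 10 of 40 replication genes lie below it.

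In polysome RNA at P3 the replication genes differed little between the viruses. With Lin28a 30 of 41 members were higher and 11 lower, none past 1.5-fold, and the median log2 ratio was 0.08. That is near the background, in which 62.8% of 12289 genes were higher by any amount, 3.69% past 1.5-fold and 0.952% past 2-fold, 37.2%, 1.51% and 0.122% were lower by these steps, and the median was 0.06. With the median of all genes removed, 25 of 41 members were higher. The highest members were Gins1, with 7.62 RPKM in control and 10.8 in Lin28a (0.45), Gins4, with 15.6 and 20.1 (0.34), Tyms, with 3.63 and 4.64 (0.28, uncertain beside its copy Tyms-ps), and Gmnn, with 30.0 and 36.7 (0.28). The lowest were Rfc1, with 17.5 and 15.6 RPKM (-0.15), Mcm10, with 6.88 and 6.20 (-0.13), Prim2 (-0.11) and Orc6 (-0.08). Of 40 members measured in both assays, 21 were higher with Lin28a in polysomes and in P3 RNA, 8 higher in polysomes only, 9 in RNA only, and 2, Prim2 and Rpa1, in neither. This cross count was not made over all genes, so nothing particular to the members can be read from it. The mitosis genes, with a median of 0.72 in P3 RNA, had a median of 0.04 in polysomes with 17 of 25 higher.

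The difference of the polysome and P3 RNA ratios was small for the members, with 19 of 41 above 0 and a median of -0.03, where 59.3% of 13071 genes were above 0 and the median was 0.07. No member passed 1.5-fold with the pseudocount of 1, while Dna2 (-0.71) and Mcm10 (-0.59) did, downward, with one of 0.1. With the pseudocount of 1 it was passed by 6.14% of all genes upward and 2.4% downward, with 0.895% and 0.237% past 2-fold and 40.7% below 0. The highest were Ccne2 (0.46), Pcna (0.44), Cdt1 (0.39) and Rpa1 (0.38), and the lowest were Dna2 (-0.50), Cdc45 (-0.49), Mcm10 (-0.48) and Rrm2 (-0.42). Of the 25 mitosis genes 25 were below 0, 15 past 1.5-fold, with a median of -0.66. Since this difference subtracts the P3 RNA ratio, it takes over that ratio with the sign turned. It is thus no separate result for the mitosis list or for the genes at the ends of the P3 comparison.

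Within the MCM2-7 ring the order of the subunits differed between the assays. In each of the 4 RNA-seq libraries Mcm7 was the highest and Mcm5 the lowest of the 6. Mcm7 made up 27.1% (P1) and 29.9% (P3) of their summed FPKM in control, and 28.1% (P1) and 36.2% (P3) with Lin28a. In polysomes Mcm6 was the highest, with 23.6 RPKM in control and 23.8 in Lin28a (28.1% and 26.2% of the sum), and Mcm7, with 12.2 and 14.4 RPKM, made up 14.5% and 15.8%. Mcm7 carries the microRNA genes Mir25, Mir93 and Mir106b and overlaps Ap4m1. FPKM and RPKM come from separately made tables, so levels of the assays are set side by side only. The order in polysomes rests on the reading as RPKM, as scaling by gene length was not checked.

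**Figure D4:**
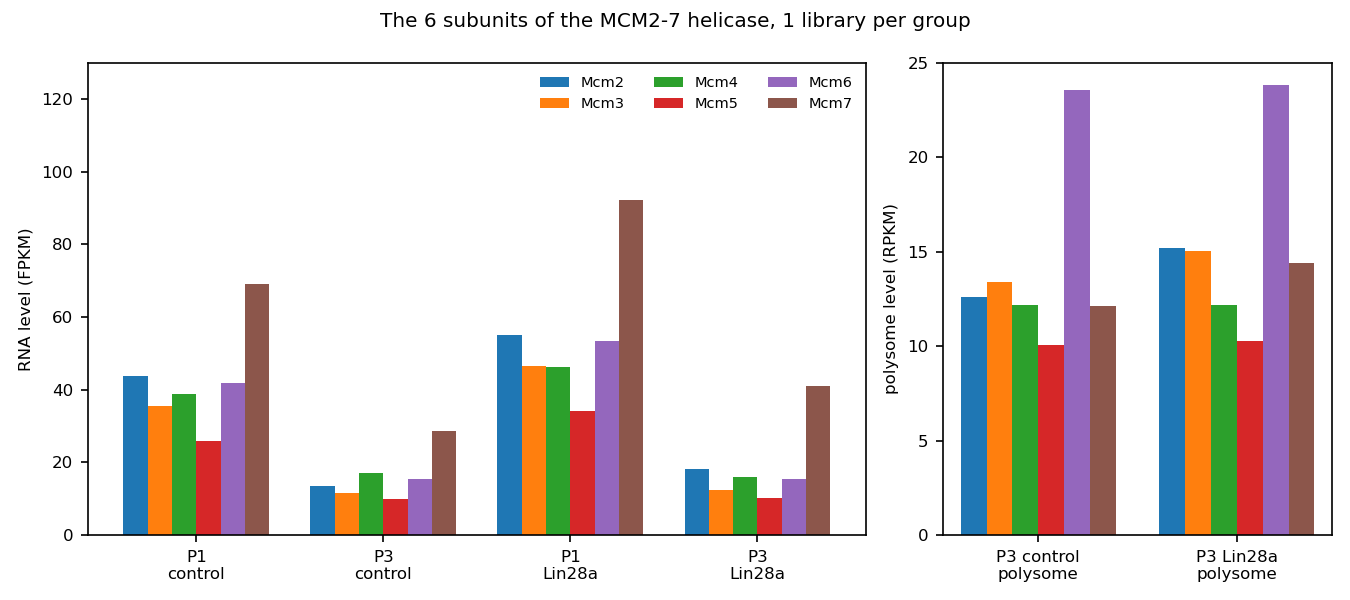
Level of the 6 MCM2-7 subunits (coloured bars) in the 4 RNA-seq libraries in FPKM (left) and the 2 polysome libraries in RPKM (right), 1 library per group and so no error bars. Mcm7 is the tallest bar in every RNA-seq library, and Mcm6, at 23.6 and 23.8 RPKM, in both polysome libraries. The order of the polysome bars rests on the reading as RPKM, as scaling by gene length was not checked.

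A further 46 genes of replication and chromatin assembly, listed apart from the members, were mostly lower with passage and higher with Lin28a. With passage in control 40 of 46 were lower, 10 past 2-fold, and 1 was higher past 2-fold (median -0.72). In Lin28a 40 were lower, 11 past 2-fold (median -0.61). In control the largest ratio was that of Pold4, the smallest subunit of polymerase delta, which was higher at P3: 6.59 (P1) and 39.6 (P3) FPKM in control, and 5.99 (P1) and 25.8 (P3) with Lin28a (2.42 and 1.94). Chaf1b, a subunit of the histone chaperone CAF-1, was at 11.7, 4.02, 18.4 and 3.37 FPKM (-1.34 and -2.15). Rif1, a factor of replication timing, had -1.33 and -0.98, and Uhrf1, which brings the maintenance methyltransferase to new DNA, had -1.28 and -0.96. With Lin28a 43 of 46 were higher at P1 (median 0.22) and 32 at P3 (median 0.17), none past 2-fold. At P3 the largest ratios were those of Top2a (0.75), which is also on the mitosis list, the kinase activator Dbf4 (0.71), Pold4 (-0.60) and Uhrf1 (0.59).

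Regulators of the passage into S phase are given beside the members. Of 20 such genes 17 were lower with passage in control, 4 past 2-fold (median -0.52). E2f1, an activator of replication genes, was at 14.2 (P1) and 4.81 (P3) FPKM in control, and 18.6 (P1) and 4.86 (P3) with Lin28a, log2 ratios of -1.39 and -1.74. Skp2 (-1.28, -1.05), a ubiquitin ligase subunit, the phosphatase Cdc25a (-1.19, -0.87) and the repressor E2f7 (-1.07, -1.18) were the others past 2-fold in control. At P3 17 of 20 were higher with Lin28a (median 0.27), led by cyclin A, Ccna2, with 45.3 FPKM in control and 82.4 in Lin28a (0.85), Cdc25a (0.72), E2f5 (0.59) and E2f6 (0.51). Cyclin-dependent kinase inhibitors were higher with passage in 7 of 7 cases in both cultures. Past 2-fold were Cdkn2b, Cdkn1a and Cdkn2a in control, and Cdkn2b, Cdkn2a and Cdkn1c in Lin28a, where Cdkn1a was at 0.95. Cdkn2b was at 4.28 (P1) and 57.2 (P3) FPKM in control, and 3.04 (P1) and 23.8 (P3) with Lin28a. Cdkn1a was at 34.4, 148, 71.7 and 139.7 FPKM, and Cdkn2a at 2.02, 11.7, 2.06 and 5.85 FPKM. Cdkn1c was at 114, 166, 94.98 and 206 FPKM (0.54 and 1.11). With Lin28a at P3 5 of 7 inhibitors were lower and 2 higher, with Cdkn2b (-1.23) past 2-fold and Cdkn2a at -0.89. At P1 5 were lower and 2 higher, with Cdkn1a (1.04) higher past 2-fold. Of all genes 1.34% were lower past 2-fold at P3 and 0.135% higher past 2-fold at P1.

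Markers of cell types moved with the same comparisons, and their part in the replication results was not tested. All 10 neural stem and progenitor markers were at 1 or more in each of the 6 libraries, with sums from 3226 to 6190 FPKM in RNA-seq, of which Fabp7 and Vim made up most. With passage 6 of the 10 were higher and 4 lower in both cultures, in control from -2.31 for Prom1 and -1.17 for Nes to 1.89 for Hes5. All 8 ventral midbrain markers were at 1 or more in both P1 libraries, and Foxa2 and Lmx1b were under 1 in P3 control. With passage 8 of 8 were lower in control, all past 2-fold (median -2.19), and 8 of 8 in Lin28a (median -1.18), and at P3 8 of 8 were higher with Lin28a (median 0.91). In control the sum of 10 neuron markers was 1115 FPKM at P1 and 276 at P3, with 10 of 10 lower, and in Lin28a it was 949 and 482, again with 10 of 10 lower. The sum of 8 astroglial markers was 346 and 4388 FPKM in control and 272 and 1981 in Lin28a, with 8 of 8 higher at P3 in both. The 10 oligodendrocyte lineage markers summed to 171 and 1710 FPKM in control and to 102 and 1020 in Lin28a, with 9 of 9 measured genes higher at P3 in both. At P3 with Lin28a 10 of 10 neuron markers were higher, and 8 of 8 astroglial and 9 of 9 oligodendrocyte lineage markers lower. At P1 with Lin28a 10 of 10 neuron markers, 5 of 6 astroglial and 7 of 7 oligodendrocyte lineage markers were lower, none past 2-fold. None of 6 microglial markers reached 1 in any library, and of 6 endothelial markers only Kdr did in all 6 libraries, with Flt1 in both P3 RNA libraries. The sum of 6 fibroblast markers was 60.2, 27.8, 50.3 and 33.6 FPKM in P1 control, P3 control, P1 Lin28a and P3 Lin28a.

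The labels held for the virus. Lin28a was at 0.128 (P1) and 0.0620 (P3) FPKM in control, and 478 (P1) and 103.8 (P3) with Lin28a. In the Lin28a culture it was thus lower at P3, so Lin28a ratios at P1 and P3 compare unlike Lin28a levels. The sequencing depth is unknown, so no counting interval can be given. Of the 41 members 10 overlap another protein-coding gene (Orc1, Mcm7, Cdc45, Gins2, Rfc4, Rpa1, Lig1, Fen1, Tk1 and Ccne2), and whether the counting used strand is not given in the sources used here, so reads of such pairs may have been shared.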

How the data were processed

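RNA-seq and polysome-seq tables of 6 libraries were used, and 4 small RNA libraries were not. The RNA-seq values are read as FPKM deposited by the authors. The polysome values are read as RPKM deposited by the authors. Among 945 genes under 0.1 in both libraries, 724 had a ratio of whole reads from 1 to 6, within 0.01 on the log2 scale. For this the steps were shifted by the most frequent log2 ratio, -0.06. Such steps show scaled read counts, but gene length cancels in the ratio, so scaling by length was not checked. No file header names a unit. Bowtie 1.0.0, TopHat2 2.0.6, Cufflinks 2.1.1 and mm9 are named per the submitters' processing notes, without roles. RNA-seq genes with no estimate are listed at 4.8e-07 and polysome genes at 0.00204 (control) and 0.00331 (Lin28a). The labels call these libraries poly(A)-selected but also name a stranded total RNA kit.

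Libraries were set against each other by log2 ratio, with 1 added to each level (pseudocount), for genes at 1 or more in at least 1 library of the comparison, in 7 comparisons. Genes past 2-fold and 1.5-fold were counted. The ratio calculation was tested on simulated data. Alternatives were a pseudocount of 0.1, ratios centred on the median of all genes and no filter. No test was run, as each group has 1 library. In each comparison the 4 highest and 4 lowest members were named, with the largest per role in control passage, and up to 4 genes of each further list with the largest ratios in control passage and in Lin28a at P3. Other members were named to describe their role, and the genes whose sequence is printed were chosen after seeing where the letters lay. The members and lists were chosen with earlier results of these data known. All list genes matched the tables by symbol, and 0 columns of other samples were found. Promoters came from RefSeq (GRCm38.p6), so no coordinates were joined to the mm9 files. Python 3.11.15, numpy 2.4.6, pandas 2.3.3 and matplotlib 3.10.9 were used.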

Additional observations from a re-analysis of the deposited data

Results flagged for a closer look

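For 10 replication genes the Lin28a ratio had opposite signs at P1 and P3, higher at P1 and lower at P3. All 41 members were higher at P1, so these are the members lower at P3, where 51.5% of all genes compared were lower. The difference between P1 and P3 was not tested, since each group holds 1 library. As the P3 ratio minus the P1 ratio on the log2 scale, the values were -0.67 for Ccne2, -0.51 for Rpa1, -0.49 for Pcna, -0.45 for Cdt1, -0.36 for Rfc3, -0.35 for Fen1, -0.34 for Mcm4, -0.33 for Ccne1, -0.14 for Prim2 and -0.040 for Pola1. The P3 ratios themselves ran from -0.39 (Rpa1) to -0.0046 (Pola1), all within 1.5-fold, so the sign at P3 rests on small differences for several of them.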

How the results depend on the processing

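No paired analysis was possible because each group holds 1 library and the labels carry no replicate numbers. For the same reason no library could be left out. The counts of members past 2-fold and by any amount, and the medians, kept their direction under a pseudocount of 0.1, centring on the median of all genes and no filter on low values. Members lower past 2-fold with passage numbered 18 to 20 in control and 22 to 24 in Lin28a. Those higher by any amount with Lin28a numbered 41 under every alternative at P1 and 30 or 31 at P3. Counts past 1.5-fold were recomputed too, as an addition chosen after seeing the data. With a pseudocount of 0.1, 1 member was higher past 1.5-fold with Lin28a at P3 (Dna2) and 2 were lower for the polysome to RNA difference (Dna2 and Mcm10), in place of 0 in each. Centring moved 2 medians by over 1.5 times: the polysome ratio of the members from 0.082 to 0.017 and the polysome to RNA difference from -0.028 to -0.096. It also left 25 members higher in polysomes in place of 30, and 13 above 0 for the polysome to RNA difference in place of 19. The cause is the construction, as the medians of all genes subtracted there were 0.06 and 0.07. Ratios of low genes such as Orc1, Cdc6 and Dna2 rest on few fragments, and their precision is unknown.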

Other observations

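The members with and without the E2F letters in their promoter windows overlapped widely in their ratios. With passage in control the 14 genes with the letters had a median log2 ratio of -1.13 (-1.55 to 0.36) and the 18 without had -0.78 (-1.61 to -0.11). With Lin28a at P3 the medians were 0.05 (-0.39 to 0.49) and 0.23 (-0.27 to 0.52), and at P1 they were 0.33 and 0.34. Mcm2, Tyms and Pcna are among the 18 genes whose windows lack these letters, and Rpa1, higher at P3 in control, is among the 14 that hold them.

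Promoter windows of the neighbouring lists held other letters. The CHR letters TTTGAA, on either strand, stood in 15 of 21 windows of mitosis genes (71.4%), in 4 of 37 of the replication genes (10.8%), in 11 of 48 of the further replication genes (22.9%) and in 12.6% of the windows of all genes of the tables. The E2F letters stood in 1 of 21 windows of mitosis genes and in 15 of 48 of the further replication genes (31.2%). The CCAAT letters stood in 17 of 21 mitosis windows (81.0%) and 22 of 37 replication windows (59.5%), against 37.3% of all genes of the tables. The GC box letters GGGCGG stood in 24 of 37 replication windows (64.9%), in 18 of 21 mitosis windows (85.7%) and in 39 of 48 of the further replication genes (81.2%), against 56.1% of all genes of the tables.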
